A study of Danio rerio with 6 samples.

Results

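The genes described here are 7 of a set of 8 transcription factor genes of the telencephalon and its dorsal part, the pallium: emx1, emx2, emx3, lhx2b, lhx9, tbr1b and eomesa. The set was taken by gene symbol from a table of 32520 zebrafish genes. The symbol source gives most of them only a shared upper-case name, and EOMES stands for 2 Ensembl genes, so the 8 symbols brought in 9 genes. Of these, 8 had enough counts to be tested. Groups were heads of slbp1-/- embryos (3 libraries, allele rw440 in the titles) and heads of their wildtype siblings (3 libraries), both taken at 2 days post fertilization. The protein made from slbp1 (slbp in the annotation) is the stem-loop binding factor of replication-dependent histone mRNA, and the comparison asks which transcripts differ when it is mutated. The labels describe neither the lesion nor whether a library pools several heads or clutches. The p-values therefore rest on library-to-library spread alone, part or all of which may be technical.

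The telencephalon forms at the front of the neural tube. Emx and Lhx2 factors give its dorsal progenitors regional identity, and Tbr1 and Eomes (Tbr2) are T-box factors that mark the excitatory neuron lineage of the pallium. The set has 5 regional progenitor genes, among them the 3 emx genes and lhx2b, which are set here against the postmitotic genes tbr1b and eomesa, with lhx9 on neither side. The division is not strict: in mouse, Emx1 is also made in cortical neurons, and Eomes marks intermediate progenitors that still divide. Several of these genes are also active outside the telencephalon, such as lhx2b in the eye and lhx9 in the diencephalon, and a head library sums all these sites.

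Levels are given in CPM, that is, counts scaled for the size and RNA composition of each library. Total counts were 4419886 to 5395071 in mutant and 3421961 to 5258641 in sibling libraries, where 3 counts correspond to 0.684 to 0.708 CPM in mutants and 0.519 to 0.776 CPM in siblings. The mutated gene's own transcript stood at 180, 144 and 183 CPM in mutants, against 98.1, 104 and 87.2 CPM in siblings, which does not check the genotypes as the lesion is not described. Of 15561 genes tested by edgeR's quasi-likelihood test, 25.7% were called at an adjusted p under 0.05, with 12.9% higher and 12.8% lower in mutants. Without sibling replicate 1 the number of called genes dropped to 2521, against 4004 with all libraries. When scaled by total counts alone, 28.2% of the calls were higher in mutants against 50.3%, since that scaling moved the median log2 fold change of all genes to -0.26. In mutant replicate 3, all 19 genes of a pan-neuronal list were at their lowest among the mutants, and so were 21 of 29 pallial and other glutamatergic neuron genes and 15 of 22 midbrain and hindbrain genes. Of the 9 telencephalon and pallium genes, only 3 were. The share of all genes at their lowest in that library was not counted. Its scaling factor for RNA composition was 0.788, against 0.959 to 1.14 in the other libraries.

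Both pallial neuron genes that could be tested fell in mutant heads, while the regional genes divided: emx1, emx2 and lhx2b fell, and 2 of the 5, emx3 among them, were not called. In all, 6 of the 8 tested genes fell and 0 rose, against 12.8% lower and 12.9% higher over all genes tested. Their median log2 fold change, mutant minus sibling, was -0.81, and that of all genes tested was 0.0045. In whole heads, fewer cells of a type and less RNA per cell cannot be told apart.

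**Figure D1:**
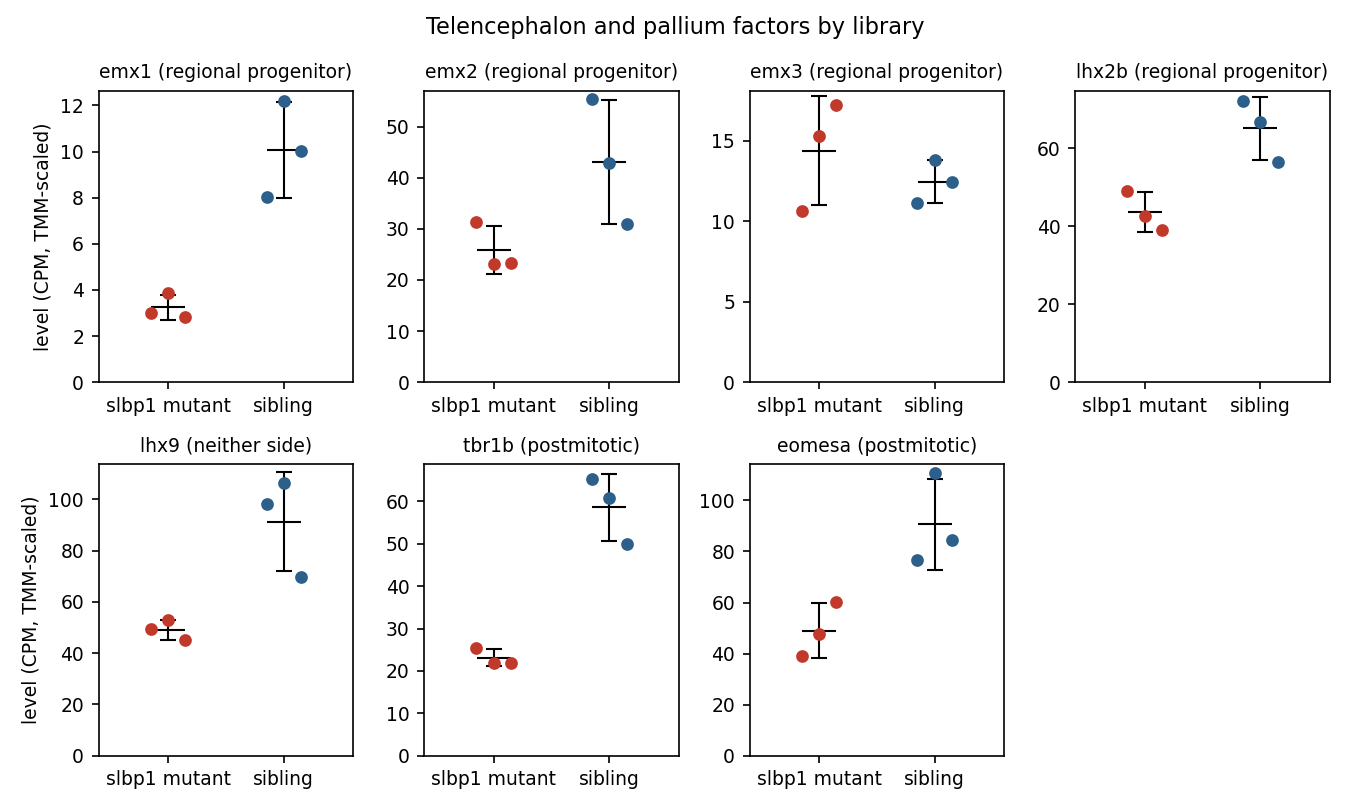
Level of each of 7 of the 8 tested genes in CPM (vertical axes from 0, a scale for each panel) in the 3 slbp1 mutant and 3 sibling libraries; points are libraries, and black lines are the mean and SD. For emx1, lhx2b, lhx9, tbr1b and eomesa the 3 mutant libraries lie below the 3 sibling libraries; for emx2 and emx3 the groups overlap.

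Among the regional genes, emx3 (ENSDARG00000020417), an early dorsal telencephalon gene of the zebrafish, was not called. Its level was 10.7, 15.3 and 17.2 CPM in mutants and 11.1, 13.8 and 12.5 CPM in siblings. Mutant libraries lay on both sides of the sibling range. The log2 fold change was 0.20 ± 0.26 (SE), the interval ran from -0.36 to 0.77, and the adjusted p was 0.615. Scaled by total counts alone it was -0.07, also not called.

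The related gene emx1 (ENSDARG00000039569) behaved otherwise. It had 3.01, 3.88 and 2.83 CPM in mutants, from 13, 17 and 12 counts, against 8.02, 12.2 and 10.0 CPM in siblings, from 31, 66 and 58 counts. Every mutant library was below every sibling library. The log2 fold change of -1.63 ± 0.34 (SE) corresponds to a 3.10-fold lower level in mutants, with an adjusted p of 0.00400. Its point estimate is the lowest of the tested genes of the set, but its 95% interval, from -2.37 to -0.90, overlaps those of emx2, lhx2b, lhx9, tbr1b and eomesa.

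Smaller differences were seen for emx2 and lhx2b. The homeobox gene emx2 (ENSDARG00000039701), a dorsal patterning factor, had 31.3, 23.0 and 23.4 CPM in mutants, against 55.4, 43.0 and 31.0 CPM in siblings. The groups overlapped narrowly, since mutant replicate 1 was just above sibling replicate 3. Its log2 fold change was -0.73 ± 0.23 (SE), with an adjusted p of 0.0351. That call was lost without mutant replicate 2 or 3 or without sibling replicate 1 or 2, at adjusted p from 0.0700 to 0.163 by edgeR.

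The LIM homeobox gene lhx2b (LHX2, ENSDARG00000031222), mutated in the belladonna line with its misrouted optic axons, had 49.1, 42.7 and 39.0 CPM in mutants, against 72.2, 66.8 and 56.4 CPM in siblings. All mutants were below all siblings. The log2 fold change was -0.58 ± 0.17 (SE), with an adjusted p of 0.0259, and leaving out the same libraries as for emx2, each in turn, took the adjusted p to between 0.0565 and 0.0966 by edgeR. Only emx1 of the 5 regional genes was called in each of those 4 fits.

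Between the 2 sides stands lhx9 (ENSDARG00000056979), a LIM homeobox gene made in the pallium and diencephalon of the mouse. It had 49.6, 52.9 and 45.1 CPM in mutants, against 98.1, 106 and 69.6 CPM in siblings. The mutant libraries lay close together and below all siblings, which were more spread. It was 1.85-fold lower in mutants, at -0.89 ± 0.18 (SE) on the log2 scale, with an adjusted p of 0.00383.

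Of the postmitotic genes, tbr1b (TBR1, ENSDARG00000004712) had 25.5, 21.9 and 22.0 CPM in mutants, against 65.2, 60.9 and 49.8 CPM in siblings. The groups were far apart and the mutants nearly equal. The gene was 2.53-fold lower in mutants, at -1.34 ± 0.18 (SE) on the log2 scale, and its adjusted p of 0.000265 was the smallest of the 8 genes. Leaving out any 1 library gave log2 fold changes of -1.45 to -1.27, all called.

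The EOMES gene with most counts (ENSDARG00000006640), taken as eomesa by the shared name, had 38.9, 47.7 and 60.2 CPM in mutants, against 76.6, 111 and 84.6 CPM in siblings. Mutant replicate 3 was the highest mutant and still below every sibling. The level was 1.85-fold lower in mutants, at -0.89 ± 0.20 (SE) on the log2 scale, with an adjusted p of 0.00597. The other EOMES gene (ENSDARG00000104243) had 0 counts in all 3 mutant libraries and 7, 1 and 0 counts in siblings. It did not pass the filter on low counts, and both group means were under or near the level of 3 counts, so no fold is given. Which of the 2 genes is eomesa and which eomesb could not be settled from the symbols.

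Counting libraries rather than tests, 5 of the 8 tested genes had all mutants below all siblings, namely emx1, lhx2b, lhx9, tbr1b and eomesa, against 21.8% of all genes tested. They comprised 2 of 5 regional genes, both postmitotic genes and lhx9.

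**Figure D2:**
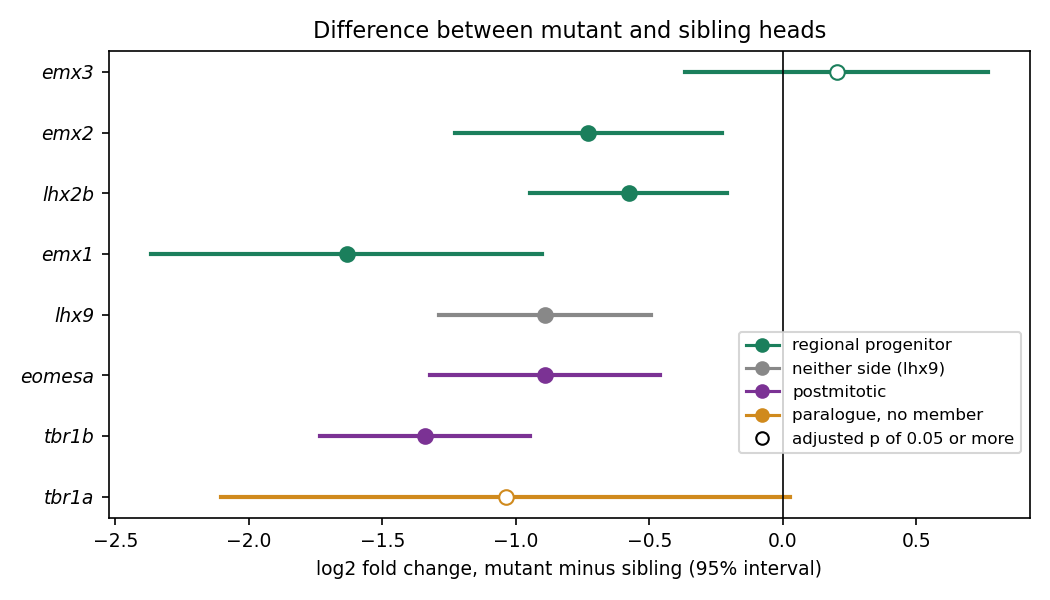
Log2 fold change, mutant minus sibling, with its 95% interval (horizontal axis) for 7 of the 8 tested genes, coloured by role, and for the paralogue tbr1a; filled points had an adjusted p under 0.05. The intervals of emx3 and tbr1a include 0, and those of the other 6 genes lie below 0.

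The contrast between regional and postmitotic genes was then taken within each library, as the mean log2 CPM of the 5 regional genes minus that of tbr1b and eomesa. This difference was -0.61, -0.60 and -0.72 in mutants and -1.22, -1.28 and -1.23 in siblings. All mutants were higher than all siblings, with means of -0.64 ± 0.07 for mutants and -1.24 ± 0.03 for siblings (SD, n = 3). The regional side was therefore 0.60 log2 units higher against the postmitotic side in mutants. The regional genes did not share this evenly: the shift was 0.85 when emx1 was left out and 0.43 without emx3, an alternative chosen after the data were seen. The postmitotic side holds only tbr1b (-1.34) and eomesa (-0.89), and the shift was not recomputed with either left out. The regional gene emx1 (-1.63) had a lower estimate than both. The shift is given as a description, with no test.

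A comparison with emx3 in the same library does not depend on how libraries are scaled, and was also chosen after the values were seen. Its precision is limited by emx3, which had 46, 67 and 73 counts in mutants and 43, 75 and 72 counts in siblings. For each 100 emx3 counts there were 239, 143 and 127 tbr1b counts in mutants, against 586, 440 and 400.0 in siblings. For eomesa there were 365, 312 and 349 in mutants and 688, 800 and 679 in siblings. The ratio of eomesa to emx3 was tighter within each group than that of tbr1b, and for both genes the groups were apart.

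On the same measure, emx1 averaged 23.4 ± 6.16 counts in mutant and 80.2 ± 7.96 counts in sibling libraries (SD, n = 3), with no overlap. Of the 6 ratios, those of emx1, lhx9, tbr1b and eomesa had all mutants below all siblings. Each of these 4 reached an exact two-sided permutation p of 0.1 (0.15 adjusted over the 6 ratios), the smallest that 3 against 3 libraries can give, so none can pass 0.05. For emx2 and lhx2b the groups overlapped, and the exact permutation p was 0.2 for each (adjusted 0.2). The estimate for emx3 itself was 0.20 on the log2 scale, which lowers each of these ratios in mutants. All 6 ratios share the same emx3 counts, so they are not independent of each other. The share of all genes tested that separate on this ratio was not counted.

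**Figure D3:**
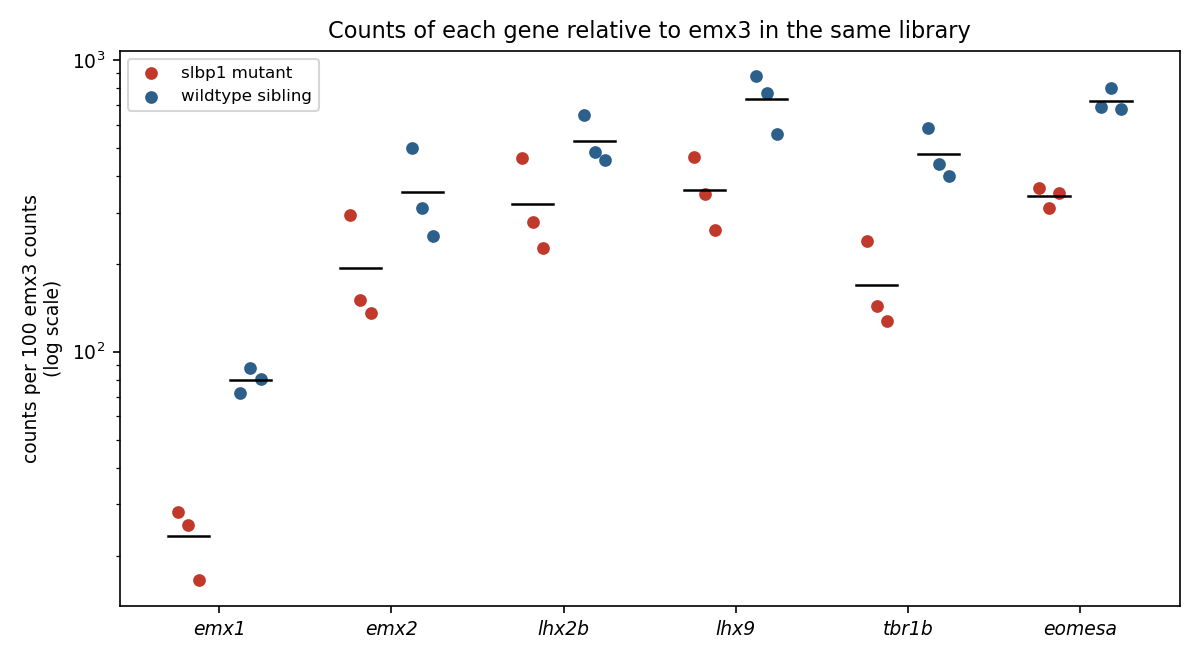
Counts of each gene per 100 emx3 counts of the same library (vertical log axis) in slbp1 mutants (left of each pair) and siblings; points are libraries and lines are means. Groups are apart for emx1, lhx9, tbr1b and eomesa and overlap for emx2 and lhx2b; heights of different genes are not comparable, as counts are not set per gene length.

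The zebrafish has further copies of some of these genes. The second tbr1 copy, tbr1a (ENSDARG00000076259), was not called, at -1.04 ± 0.49 (SE) and an adjusted p of 0.140. Its mutant libraries varied widely, with 36, 19 and 5 counts, against 34, 63 and 47 counts in siblings. The second lhx2 copy, lhx2a, had 7, 2 and 0 counts in mutants and 5, 2 and 7 in siblings and was not tested. How reads that fit more than 1 copy were counted is not given, so the split between copies is uncertain.

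Other genes of the telencephalon were read from lists made for this comparison. Of 21 tested regional and progenitor genes outside the 8, 7 rose, 3 fell and 11 were not called, with a median of 0.06. The shares were 33.3% higher and 14.3% lower, against 12.9% and 12.8% of all genes tested. Where in the head these genes were made is not shown by a head library. Of them, rx3 and FEZF1 are also counted in the diencephalon and hypothalamus list below. The risers were led by NR2E1, a nuclear receptor gene that maintains neural stem cells in mouse, at 208 ± 53.0 CPM in mutant heads and 43.0 ± 12.6 CPM in sibling heads (SD, n = 3; log2 fold change 2.27, adjusted p 3.79e-05). SIX3 (ENSDARG00000054879), a factor of the anterior forebrain and eye, rose by 1.04 and DMRTA2, a dorsal telencephalon patterning gene, by 0.92 on the log2 scale. The other SIX3 gene of the list was not called, at 0.34. Among the fallers was a copy of the cortical patterning gene NR2F1 (ENSDARG00000017168), which changed by -0.99. The other NR2F1 gene of the list was not called, at -0.41.

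Genes listed for pallial and other excitatory neurons were mostly lower in mutants. Of 28 tested, 19 fell, 3 rose and 6 were not called, with a median of -1.23. The share lower was 67.9%, against 12.8% of all genes tested and 78.9% of the pan-neuronal list described below. Where in the head these genes were made is not shown by a head library. The values are therefore of listed genes and not of the pallium alone. Mutant replicate 3 was the lowest mutant for 21 of the 29 listed genes. NEUROD6, a differentiation factor gene of pallial excitatory neurons, has 2 copies in the table. The first (ENSDARG00000020794) averaged 19.6 ± 1.66 CPM in mutant and 161 ± 18.5 CPM in sibling heads, and the second (ENSDARG00000040008) 1.24 ± 0.477 CPM in mutant and 17.8 ± 3.30 CPM in sibling heads (SD, n = 3).

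On the log2 scale these NEUROD6 differences were -3.04 ± 0.17 and -3.82 ± 0.37 (SE), with adjusted p of 9.32e-08 and 1.69e-05. The second copy's mutant mean of 1.24 CPM was near the level of 3 counts, so the size of its difference is uncertain. NFIA, a nuclear factor gene of later neural differentiation, changed by -2.07. Both copies of the vesicular glutamate transporter gene SLC17A6, chosen after their values were seen, fell by 1.14 and 1.92. The 3 risers were AUTS2 (ENSDARG00000020946), bcl11ab and BHLHE22, by 0.90, 0.80 and 0.50. The other AUTS2 gene of the list was not called, at 0.04. Of the genes related to bcl11ab, bcl11ba (-1.81) and bcl11bb (-1.16) were called lower and BCL11A (-0.51) was not called.

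Genes listed for the subpallium, the ventral telencephalon that gives rise to inhibitory neurons, were split. Of 22 tested, 5 rose, 5 fell and 12 were not called. The shares were 22.7% each way, against 12.9% higher and 12.8% lower of all genes tested. The risers included ascl1a, a proneural gene of dividing cells (1.73), NKX2-4 (ENSDARG00000104107, 1.25) and GSX1, a ventral progenitor gene (0.98 on the log2 scale). The fallers included ISL1 (-1.74), and GAD2 (-1.73) and GAD1 (ENSDARG00000027419, -1.47), which encode the enzymes that make GABA. The other GAD1 gene of the list was not called, at -1.06. A head library does not show where in the head these risers and fallers were made. The values are therefore of listed genes and not of the subpallium alone.

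**Figure D4:**
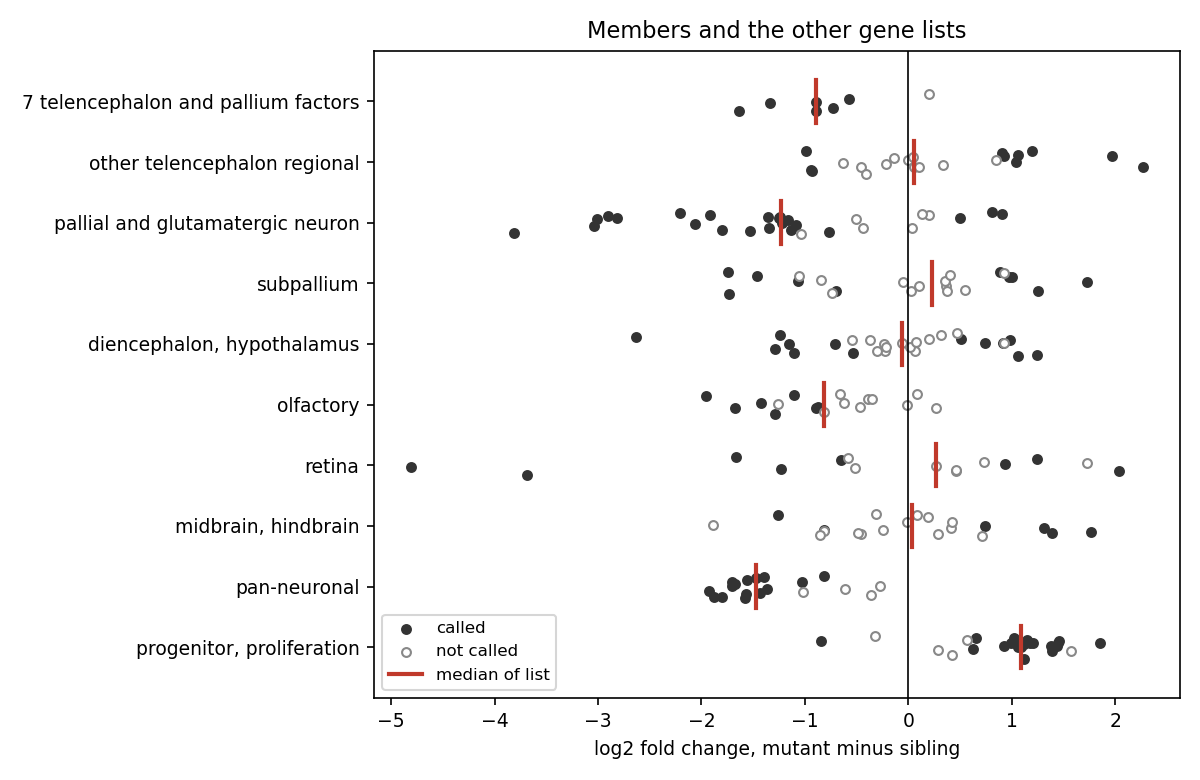
Log2 fold change, mutant minus sibling (horizontal axis), of each tested gene of 7 telencephalon and pallium factors (top row) and of 9 other gene lists; filled points were called, open points were not, and red lines are list medians. The 7 factors have a median of -0.89, between those of the pan-neuronal list (-1.47) and the other regional telencephalon genes (0.06).

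Markers of the other regions and cell types that a head holds moved as follows, and their part in the results above was not tested. Pan-neuronal genes were lower, with 15 of 19 tested called lower and 0 higher, and their summed level ran from 1479 to 2515 CPM in mutants and from 3682.5 to 4736 CPM in siblings. GNG3, STMN2 (ENSDARG00000070537) and sncb, all made in neurons at large, fell by 1.70, 1.57 and 1.44 on the log2 scale. Neural progenitor and proliferation genes were higher, with 19 of 25 called higher and 1, FABP7 (ENSDARG00000007697), lower, and a summed level of 11548 to 14414 CPM in mutants and 4996 to 6894.5 CPM in siblings. The other FABP7 gene of the list was not called, at a log2 fold change of 1.57. The replication clamp gene PCNA rose by 1.85, SOX3 by 1.46 and MCM3 by 1.21.

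Olfactory genes had 7 of 17 called lower and 0 higher, and summed to 275 to 388 CPM in mutants and 562 to 598 CPM in siblings. The fallers included CALB2 and EBF3, at -1.96 and -1.29. The other 10 tested genes were not called, and where in the head the fallers were made was not tested. Retina genes had 3 of 15 higher and 5 lower, including rx1 (1.24) and crx (-4.81). They summed to 902 to 1725 CPM in mutants and 1374 to 1623 CPM in siblings. These sums include atoh7, which was not called and varied widely within both groups. It averaged 284 CPM (SD 444) over mutant libraries, against 86.9 CPM (SD 122) over sibling libraries. The retina sums were not recomputed without atoh7, so their overlap may rest on this gene. Diencephalon and hypothalamus genes had 6 of 27 higher and 7 lower, including DBX1 (ENSDARG00000001859, 0.98) and POU4F1 (-2.63), and summed to 1505 to 1545.5 CPM in mutants and 1443 to 1902 CPM in siblings. Midbrain and hindbrain genes had 4 of 20 higher and 2 lower (20% and 10%), including otx2a (1.76) and PAX8 (-1.26). They summed to 560.4 to 667 CPM in mutants and 559.7 to 653 CPM in siblings. The related genes otx2b (-0.46) and rx2 (-0.58) were not called. Over all genes tested, 12.9% were higher and 12.8% lower in mutants. No gene of these lists was at 0 in all 6 libraries.

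Set against the mean log2 CPM of the 19 pan-neuronal genes, tbr1b stood at -1.25 ± 0.37 in mutant and -1.27 ± 0.14 in sibling libraries (SD, n = 3), a difference of 0.02, with overlapping groups. The difference for emx1 was -0.16, for eomesa 0.46 and for lhx9 0.48, again with overlap. The genes emx3, emx2 and lhx2b had mutants above siblings on this measure, by 1.52, 0.65 and 0.77. The pan-neuronal list itself fell, with a median log2 fold change of -1.47, which raises any gene set against it. The share of all genes tested that lie above on this measure was not counted.

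Set against the mean of the 25 progenitor and proliferation genes, all 8 tested genes of the set had every mutant below every sibling. That list itself rose, with a median log2 fold change of 1.09, which lowers any gene set against it. The share of all genes tested that lie below on this measure was not counted. The differences ran from -0.77 for emx3 to -2.27 for tbr1b and -2.46 for emx1. These values describe these genes beside lists that themselves moved, and carry no test.

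The genes with the profile most like that of tbr1b over the 6 libraries, among 13706 candidates, were csnk1e, HMGB3 and GATA3. Their centred log2 CPM differed from that of tbr1b by a root mean square of 0.050, 0.090 and 0.091. Their log2 fold changes were -1.42, -1.28 and -1.27, against -1.34 for tbr1b. A like difference between the groups by itself brings profiles close, and a link of these genes to tbr1b was not tested.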

How the data were processed

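RNA of zebrafish heads was sequenced in 6 libraries. As deposited by the authors, the values are unnormalized counts for each Ensembl gene; HISAT2, featureCounts and the build GRCz11 are named per the submitters' processing notes, without versions. Annotation release, strand setting, multi-mapped reads and poly(A) selection were not given in the sources used here. A symbol table named 29201 of 32520 genes (98.7% of counts); a zebrafish symbol it lacks was matched by its shared upper-case name.

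Counts were fitted in R 4.3.3 with edgeR 4.0.16 (filterByExpr, TMM, robust quasi-likelihood test, two-sided, Benjamini-Hochberg over all tested genes, threshold 0.05). CPM use TMM-scaled library sizes, intervals are 95%, and log2 CPM use a prior count of 2. The fit was also run on simulated data with few changed genes, as many up as down. That run does not test the scaling where many genes differ. Floors of 3 counts cover counting error only. Alternatives were other scalings and filters, DESeq2 1.42.0, limma-voom (limma 3.58.1), a replicate block and leaving out each library.

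The genes and lists were chosen with earlier results of these data known. Named outside the 8 genes, their paralogues and slbp were up to 3 called genes per list and direction by lowest p, and the 3 genes nearest in profile to tbr1b at an average log2 CPM of at least 1. A few other listed genes, and further copies of named genes, were added after their values were seen. Some genes that these rules take are not reported here; counts, sums and means over a list include them.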

Additional observations from a re-analysis of the deposited data

How the results depend on the processing

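The calls on emx1, lhx9, tbr1b and eomesa were kept under upper quartile factors, RLE factors, scaling by total counts alone, no low-count filter, 1 CPM in 3 libraries, DESeq2, limma-voom, the replicate block and each library left out; both postmitotic genes were called lower in each. Leaving out 1 library gave 2521 to 3763 called genes, with the lowest number without sibling replicate 1, and 1 to 3 regional genes called lower. It gave log2 fold changes of -0.93 to -0.52 for emx2 and -0.68 to -0.49 for lhx2b, whose calls were lost in 4 of these 6 fits. Total counts alone turned emx3 to -0.073, where the median of all genes was -0.26. The shift of regional against postmitotic genes was 0.55 to 0.64 across the scalings, filters and left-out libraries, and 0.85 and 0.43 without emx1 and emx3. A replicate block in the fit gave 5059 called genes, and no call changed for emx1, emx2, emx3, lhx2b, lhx9, tbr1b or eomesa. Calls on the other named genes were not compared under the block. The labels state no pairing, and the correlations of residuals between libraries with the same number were 0.24, 0.09 and 0.18, each library correlating best with its own number, a hint from the data alone. Depth limits genes under about 0.7 CPM, such as the second EOMES gene.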
